A study of Mus musculus with 2 samples.

Results

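The genes described here are 37 that encode the enzymes of glycolysis below glucose phosphorylation, the formation and export of lactate, and the entry of pyruvate into the mitochondria of muscle. The glycerol phosphate shuttle and muscle fructose bisphosphatase belong to the set, while hexokinases and glucose transporters do not. Members were chosen by name alone, as every probe that is not a control and whose gene name on the arrays is a listed symbol or one of its aliases. The arrays hold 64 such probes among 41174, with at least 1 for each of the 37 genes. Spots with an outlier mark or beside debris were left out first. Of the 37 genes, 33 were then measured, meaning that on each array the WT or the *Gde5* skKO channel stood well above background. In all, 13601 genes were measured.

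Glycolysis splits glucose 6-phosphate into pyruvate and yields ATP quickly, and fast muscle fibres depend on it during contraction. Phosphofructokinase sets much of its pace and is stimulated by fructose 2,6-bisphosphate, which the bifunctional enzymes of the Pfkfb family make and break down. Pyruvate is either reduced to lactate, which leaves or enters the fibre through monocarboxylate transporters, or oxidised by the pyruvate dehydrogenase complex, which Pdk kinases switch off and Pdp phosphatases switch on.

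The arrays compared gastrocnemius (GAS) muscle of WT and *Gde5* skKO male mice aged 15 weeks and fed a normal diet. *Gde5* skKO mice carry *Gde5* flox/flox alleles, in which exon 11 is flanked by loxP sites, together with HSA-Cre, a transgene in which the human alpha-skeletal actin promoter drives Cre in skeletal muscle fibres. Per the study's methods, control mice carry the flox/flox alleles without Cre, so both groups share the floxed gene and differ in Cre. The encoded enzyme releases choline from glycerophosphocholine and leaves glycerol 3-phosphate. The labels name 5 mice of each genotype on 2 two-colour arrays with swapped dyes, and they state neither whether RNA was pooled nor whether both arrays held the same RNA. They also name neither fasting nor a glucose injection, so the feeding state of the mice is not settled by them. The paper describes array comparisons both after a glucose injection and under fasting, without saying which of them these arrays hold. Whether the 2 arrays share a feeding state is therefore not known. *Gde5* skKO RNA was labelled with Cy5 on array 1 and with Cy3 on array 2, beside WT RNA in the other dye.

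Between 44.6% and 53.2% of spots were well above background in each channel. Of the 4 probes of *Gde5* itself, listed as Prei4, 3 had log2 ratios of *Gde5* skKO over WT from -3.29 to -2.59 over both arrays. The fourth had -0.05 and -0.47. Fast fibre genes such as Myh4, Actn3 and Mylpf were bright in every channel, as the label of the tissue says. Each value below is a log2 ratio of *Gde5* skKO over WT from the deposited processed signals, followed where needed by the software's own error for that spot, and a gene stands by its brightest probe. A gene was called when the deposited p was under 0.05 on both arrays in the same direction. That p covers the error of the spots, so it says nothing of how mice of a genotype vary, and 2 arrays limit the precision. Fewer fibres of a kind and less RNA per fibre cannot be told apart in whole muscle.

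None of the 33 measured genes was called higher and none was called lower in *Gde5* skKO muscle by its brightest probe. Across all tested genes 1.58% were called higher and 1.74% lower, so with this number of genes a count of 0 lies near that background. At the median error of the 55 measured probes of these genes on array 1, 0.21, a log2 ratio of 0.40 or 1.32-fold is needed for a p of 0.05. Counting single probes, 1 was called higher, of Slc16a1, and 1 lower, of Pfkfb3, where 1.49% of all measured probes were called higher and 1.58% lower. With limma's moderated test on loess ratios at an unadjusted p under 0.05, Tpi1, Ldhb and Slc16a1 were higher and Pfkfb3 and Pdp1 were lower, beside 4.44% and 4.48% of all tested genes. After Benjamini-Hochberg adjustment over the 13601 genes none passed, and the smallest adjusted p of limma was that of Pfkfb3 at 0.183. Limma's p rests on the spread between the 2 arrays, which may hold the same RNA, so it does not measure how mice vary either.

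The ratios were small and leaned upward. The median of the 33 genes was 0.11, with 0.12 on each array, against 0.01 over all tested genes. On both arrays 19 of the 33, or 57.6%, lay above 0 and 3 lay below, whereas 29.2% of all tested genes lay above 0 on both arrays and 25.3% below. Among the 17 pathway genes at least as bright as their median, 11 lay above 0 on both arrays, and among 1056 tested genes above the same cut 304 did. Only the lower cut is shared, since the median log2 signal was 15.8 for the 17 and 14.1 for the 1056. The 3 below 0 on both arrays were Pfkfb3, Pdp1 and Pgam1. With normexp and loess in limma the median was 0.09 against 0.00 over all tested genes. The summed signal of the 33 genes, in which the brightest weigh most, had no shared direction. It was 1272100 in WT and 1391840 in *Gde5* skKO on array 1, and 1424910 and 1370770 on array 2. No test was made of the shift, since genes of a pathway on the same arrays are not independent replicates.

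**Figure D1:**
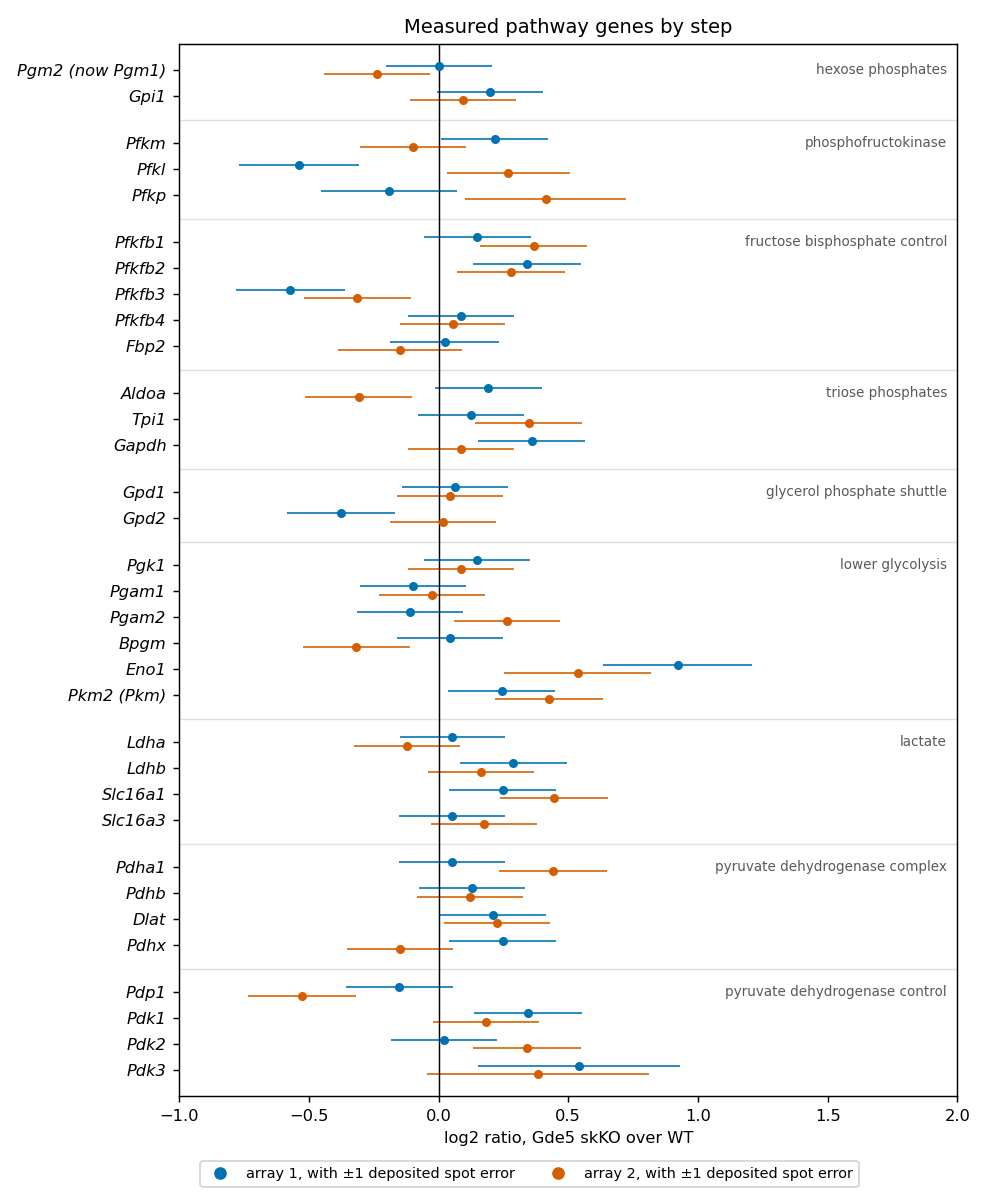
Log2 ratio of *Gde5* skKO over WT (x axis) of the 33 measured pathway genes, grouped by step, on array 1 (blue) and array 2 (orange), with bars of 1 deposited spot error to each side. Most points lie within 0.5 of 0, 19 genes lie above 0 on both arrays, and Eno1 reaches 0.92 and 0.54.

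**Figure D2:**
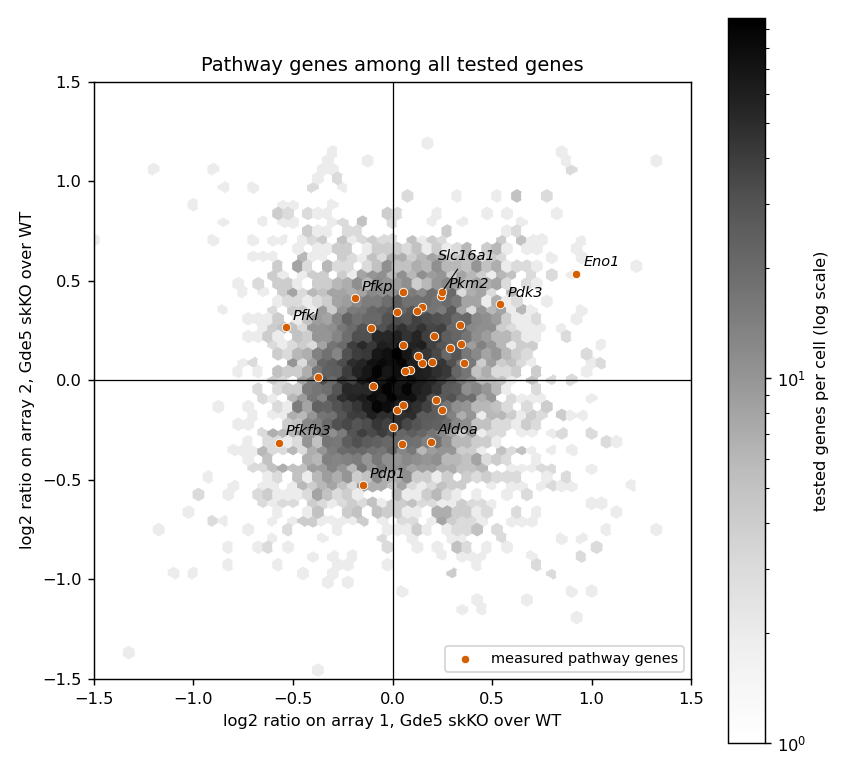
Log2 ratio on array 1 (x axis) against array 2 (y axis), with the 33 measured pathway genes in orange over the density of 13367 tested genes in grey on a log scale, and 234 tested genes outside the drawn range. The pathway genes fall mostly in the upper right quadrant near the centre, with Pfkfb3 and Pdp1 in the lower left.

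Taking the mean of both arrays against their combined error, a measure added after the values were seen, 4 pathway genes were higher and 2 lower, beside 7.93% and 6.32% of all tested genes. They are Eno1, Slc16a1, Pkm2 and Pfkfb2, and Pfkfb3 and Pdp1. For 26 of the 33 genes the 95% interval of the mean, from the errors of the spots alone, lay within a 1.5-fold change in either direction, which held for 72.2% of all tested genes. The signals and further probes of these 6 genes are given first, and the other genes follow by step.

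Slc16a1 (monocarboxylate transporter MCT1, which carries lactate and pyruvate across the cell membrane) has 3 measured probes on the plus strand of chromosome 3 in the mouse build mm8. The brightest, from 104786079 to 104786138, had a processed signal of 4380 in WT and 5199 in *Gde5* skKO on array 1, and of 3953 and 5376 on array 2. Both *Gde5* skKO signals lay above both WT signals, an order that was not counted over all tested genes. Its log2 ratios were 0.25 and 0.44, with a mean of 0.35 and a 95% interval from 0.06 to 0.63, and only array 2 passed with a p of 0.0330. The probe from 104785973 to 104786033 was called higher, with ratios of 0.55 and 0.56 and p-values of 0.00206 and 0.0164. The probe from 104782221 to 104782280 had 0.34 and 0.49 and passed on neither array. The 3 probes therefore lay above 0 on both arrays by the deposited ratios. With limma the called probe, which was dim at signals from 218 to 383, had -0.01 and 0.31 with a mean of 0.15. The probe from 104782221 to 104782280 then had -0.01 and 0.10, while the brightest kept a mean of 0.32.

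Pfkfb3, whose enzyme has high kinase activity and raises fructose 2,6-bisphosphate, has 3 measured probes on the minus strand of chromosome 2. The brightest, from 11389805 to 11389864, had a signal of 52953 in WT and 35630 in *Gde5* skKO on array 1, and of 50917 and 40990 on array 2. Its ratios were -0.57 and -0.31, with p-values of 0.00664 and 0.129, and the mean of -0.44 is a level 0.74 times that of WT with an interval on the log2 scale from -0.73 to -0.15. The probe from 11400415 to 11401828 was called lower, at -0.52 and -0.50 with p-values of 0.0161 and 0.0226. The third, from 11408199 to 11410461, had -0.10 and -0.32 and passed on neither array. All 3 lay below 0 on both arrays. The brightest probe kept -0.42 with limma (unadjusted p = 0.00397), whereas the called probe, at signals from 202 to 301, gave -0.23. The third probe turned sign with limma on array 1, at 0.09 against -0.13 on array 2, with a mean of -0.02.

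The promoters of Slc16a1 and Pfkfb3 are shown because these are the pathway genes with a called probe, in opposite directions. Each is the 250 bases before a RefSeq start site on GRCm38.p6, written 5′ to 3′ on the strand of the gene, with ACGTG or its reverse complement CACGT in capitals. This core is shared by sites of hypoxia-inducible factors and, as CACGTG, by E-boxes, and a match of letters is a description and no evidence of binding. Slc16a1 has 1 start site in the table, at chr3:104638414-104638663 on the plus strand, with 1 match that begins 200 bases before the start. Pfkfb3 has 2, at chr2:11553930-11554179 and chr2:11502091-11502340 on the minus strand, with matches that begin 60 and 53 bases before the start.
Slc16a1: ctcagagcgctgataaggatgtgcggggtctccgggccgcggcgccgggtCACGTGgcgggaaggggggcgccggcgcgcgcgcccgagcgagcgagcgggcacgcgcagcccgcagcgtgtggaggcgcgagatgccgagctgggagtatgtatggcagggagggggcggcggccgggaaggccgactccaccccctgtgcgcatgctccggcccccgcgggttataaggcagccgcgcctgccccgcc
Pfkfb3, first start: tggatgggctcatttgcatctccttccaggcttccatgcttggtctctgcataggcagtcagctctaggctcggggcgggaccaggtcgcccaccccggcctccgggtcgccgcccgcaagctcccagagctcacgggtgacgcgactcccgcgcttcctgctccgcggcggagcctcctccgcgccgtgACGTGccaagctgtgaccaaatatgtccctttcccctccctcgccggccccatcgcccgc
Pfkfb3, second start: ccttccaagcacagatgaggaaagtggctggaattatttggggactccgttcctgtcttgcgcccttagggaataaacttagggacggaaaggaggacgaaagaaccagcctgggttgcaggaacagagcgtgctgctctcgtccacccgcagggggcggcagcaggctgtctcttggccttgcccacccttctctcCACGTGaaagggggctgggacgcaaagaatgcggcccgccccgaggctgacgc

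Over the pathway, 35 of the 37 genes matched a promoter window, and 17 of the 35, or 48.6%, held the motif in at least 1 of their windows, against 18.5% of 27025 genes in the table. Counted by window, 21 of 54 windows, or 38.9%, held it, against 16.6% of 32851. CACGTG, which contains the motif on both strands, stood in 7 of the 54 windows and in 6.02% of all. The whole table includes genes of every kind and was not matched for base composition.

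**Figure D3:**
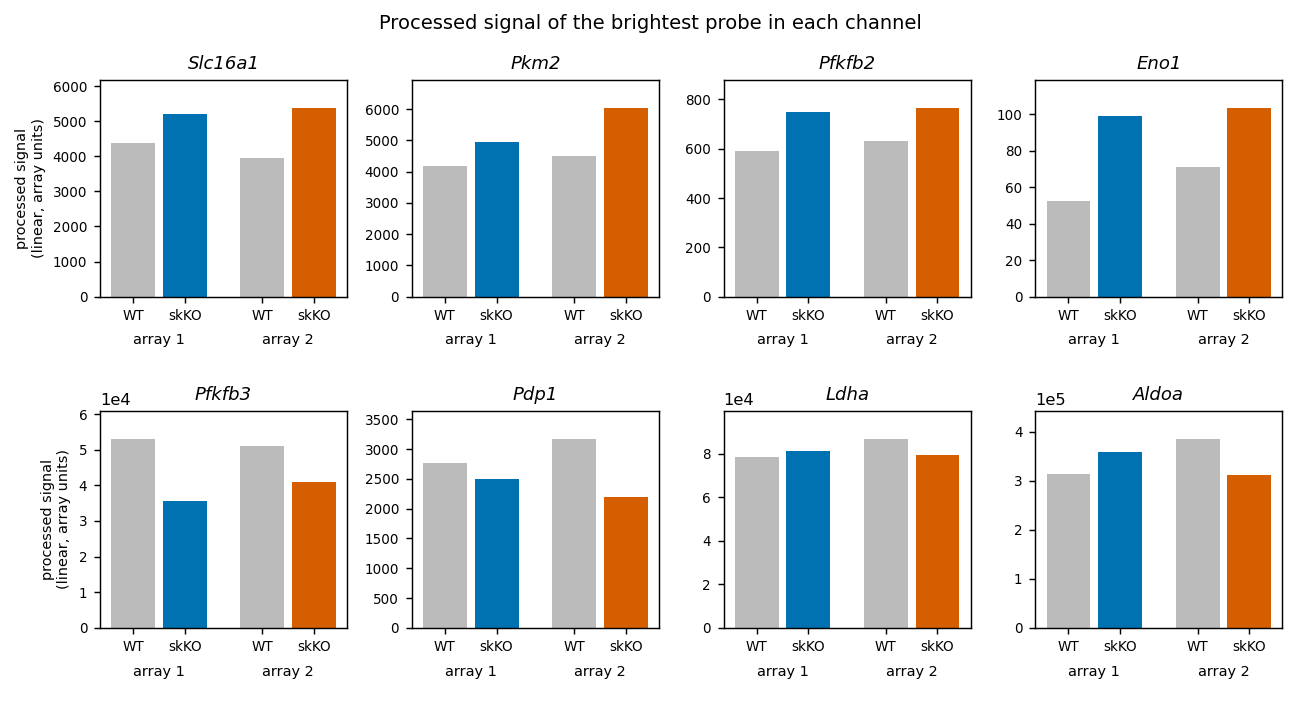
Processed signal on a linear scale from 0 (y axis) of the brightest probe of 8 pathway genes in the WT (grey) and *Gde5* skKO channel of array 1 (blue) and array 2 (orange), each bar 1 channel without replicates. In Slc16a1, Pkm2, Pfkfb2 and Eno1 both *Gde5* skKO bars stand above both WT bars, in Pfkfb3 and Pdp1 both stand below, and in Ldha and Aldoa the order turns between arrays. All but Ldha and Aldoa were picked after their values were seen, and how many of all tested genes have such an order was not counted. Heights are not comparable between genes.

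Pkm2, the array name of Pkm, encodes muscle pyruvate kinase, which makes pyruvate and ATP from phosphoenolpyruvate. Its brightest probe, at 59476958 to 59477017 on chromosome 9, had signals of 4183 in WT and 4952 in *Gde5* skKO on array 1, and of 4491 and 6032 on array 2. The ratios were 0.24 and 0.43, and only array 2 passed, with a p of 0.0406. A probe upstream, from 59470599 to 59470658, had 0.38 and 0.64 and passed on array 2 with a p of 0.00347, and the probe at 59477106 to 59477165 had 0.10 and 0.26. All 3 lay above 0 on both arrays, yet none was called. With limma the brightest turned sign on array 1, at -0.24 against 0.75 on array 2, and its adjusted p was 0.905.

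Eno1, the ubiquitous enolase, had the largest mean ratio of the pathway genes, from a dim probe with signals of 52.3 in WT and 99.0 in *Gde5* skKO on array 1 and of 71.3 and 103 on array 2. The ratios were 0.92 and 0.54, with p-values of 0.00127 and 0.0580. With limma, which handles the background of dim spots differently, the mean was 0.21 in place of 0.73, so the size of this ratio depends on the processing. The gene also has a near-identical copy in the mouse genome, and its probe may read both. Eno3, the enolase of mature muscle, was bright, at 57299 in WT and 60802 in *Gde5* skKO on array 1 with a ratio of 0.09, while its spot on array 2 was marked as not uniform and left out. Eno2 was below the threshold for a measured gene.

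Pfkfb2, a further isoenzyme of the bifunctional family and the main one of heart, had 2 measured probes of 4. The brightest had signals of 591 in WT and 749 in *Gde5* skKO on array 1, and of 630 and 765 on array 2, with ratios of 0.34 and 0.28. The other measured probe had 0.36 and 0.45, and passed on array 2 alone with a p of 0.0479. Pfkfb1, known from liver and muscle, had 0.15 and 0.37, and Pfkfb4 had 0.09 and 0.05. In this family 3 of 4 genes thus lay above 0 on both arrays and Pfkfb3 lay below. Fbp2, the muscle fructose bisphosphatase that works against phosphofructokinase, had 0.02 and -0.15.

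Pdp1, listed as Ppm2c, encodes the phosphatase that reactivates the pyruvate dehydrogenase complex. The brightest probe had a signal of 2775 in WT and 2500 in *Gde5* skKO on array 1, and of 3168 and 2200 on array 2. Its ratios were -0.15 and -0.53, past the threshold on array 2 alone with a p of 0.0121, and they gave a mean of -0.34 and an interval from -0.63 to -0.05. The second probe had -0.38 and -0.13, so both lay below 0 on both arrays and the larger difference came from a different array in each. The kinases that oppose it lay above 0 on both arrays, at 0.34 and 0.18 for Pdk1, 0.02 and 0.34 for Pdk2, and 0.54 and 0.38 for Pdk3, a dim gene with signals from 37.5 to 55.2 and errors up to 0.43. A second, dimmer probe of Pdk1 had 0.29 and -0.09. None of these kinases passed on either array.

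**Figure D4:**
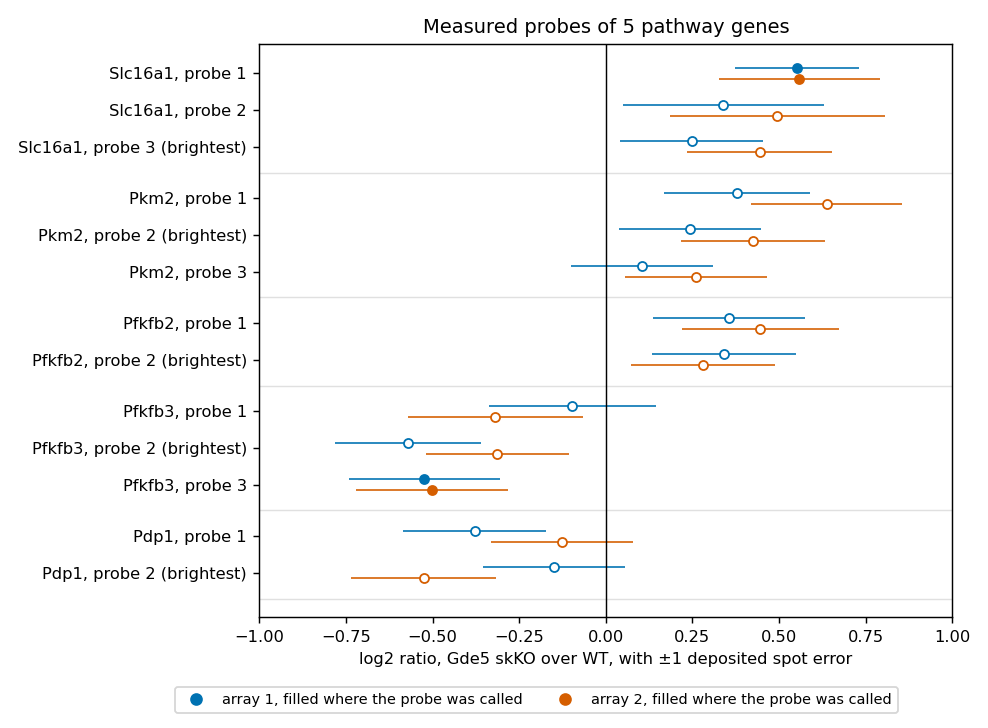
Log2 ratio of *Gde5* skKO over WT (x axis) of each measured probe of Slc16a1, Pkm2, Pfkfb2, Pfkfb3 and Pdp1 on array 1 (blue) and array 2 (orange), with bars of 1 deposited spot error to each side. Filled points mark the called probes, 1 of Slc16a1 near 0.55 and 1 of Pfkfb3 near -0.5, and the probes of a gene lie on the same side of 0.

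Among the steps that interconvert hexose phosphates, phosphoglucomutase, which links glycogen to glycolysis, showed 0.00 and -0.24 from the probe listed as Pgm2, now named Pgm1. The probe listed as Pgm1, now Pgm2, was not above background. Gpi1, glucose phosphate isomerase, had 0.20 and 0.09 from a bright probe, and 0.24 and -0.02 from a dim one. The muscle phosphofructokinase Pfkm had signals of 64586 in WT and 75018 in *Gde5* skKO on array 1, and of 74438 and 69506 on array 2. Its ratios of 0.22 and -0.10 point opposite ways, as did those of the liver form Pfkl, at -0.54 and 0.27, and of the platelet form Pfkp, at -0.19 and 0.41. A dim further probe of Pfkp had 1.70 and -1.46, so that Cy5 was the brighter dye on both arrays whichever genotype carried it, and another had 0.41 and 0.88. By its brightest probe no phosphofructokinase gene thus had a direction shared by the arrays.

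The triose phosphate steps were among the brightest. Aldoa, muscle aldolase, had signals from 310649 to 384540, and ratios of 0.19 and -0.31 that turned sign between arrays, as its second probe did at 0.20 and -0.36. Tpi1, triose phosphate isomerase, had 0.12 and 0.35, and Gapdh, glyceraldehyde 3-phosphate dehydrogenase, had 0.36 and 0.09. The mean of Tpi1 was 0.24 with an interval from -0.05 to 0.52, and that of Gapdh was 0.22 from -0.06 to 0.51. Gapdh has many processed copies in the genome, which its probe may also read. Aldoc was below the threshold for a measured gene.

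Glycerol 3-phosphate is a product of the reaction of GDE5 and is also made from dihydroxyacetone phosphate by Gpd1 in the cytosol and oxidised by Gpd2 at the mitochondrial membrane. Gpd1 had signals of 51901 in WT and 54202 in *Gde5* skKO on array 1, and of 55796 and 57549 on array 2. Its ratios were 0.06 and 0.04, with an interval of the mean from -0.23 to 0.34. Gpd2 had -0.38 and 0.02 from the brightest probe, and -0.08 and 0.20 from the other. Neither gene passed on either array.

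In lower glycolysis Pgk1, phosphoglycerate kinase, had 0.15 and 0.08 from a probe with 10 spots. The muscle mutase Pgam2 had -0.11 and 0.26, and the more widespread Pgam1 had -0.10 and -0.03. Bpgm, which makes 2,3-bisphosphoglycerate, had 0.05 and -0.32 from the brightest probe and 0.31 and 0.20 from the other, so its probes disagree. These 4 genes passed on neither array.

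Ldha encodes the lactate dehydrogenase subunit of fast muscle and Ldhb that of heart and oxidative fibres. Ldha had signals of 78453 in WT and 81431 in *Gde5* skKO on array 1, and of 86772 and 79729 on array 2, with ratios of 0.05 and -0.12, and a dimmer probe of it had 0.15 and 0.14. Ldhb had 33017 and 40304 on array 1, and 36533 and 40918 on array 2, with ratios of 0.29 and 0.16. Both *Gde5* skKO signals of Ldhb thus lay above both WT signals, an order not counted over all tested genes, while those of Ldha overlapped. Neither gene passed on either array. The intervals of the means, from -0.32 to 0.25 for Ldha and from -0.06 to 0.51 for Ldhb, overlap. Slc16a3 (MCT4), which exports lactate from glycolytic fibres, had 0.05 and 0.18, beside the 0.25 and 0.44 of Slc16a1.

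Of the 4 genes of the pyruvate dehydrogenase complex in the set, 3 lay above 0 on both arrays, beside 29.2% of all tested genes. None was called, and their median was 0.17, or 0.09 with limma's ratios. Dlat, the acetyltransferase core, had 0.21 and 0.23, and Pdhb, a subunit of the decarboxylase, had 0.13 and 0.12, with 0.22 and -0.04 from a second probe. Pdha1, the other subunit and the one that Pdk kinases phosphorylate, had 0.05 and 0.44 from the brightest probe, past the threshold on array 2 with a p of 0.0336, but -0.05 and 0.00 from the second. With limma the brightest probe of Pdha1 turned sign on array 1, at -0.15 against 0.29 on array 2. Pdhx, which anchors the last enzyme of the complex, had 0.25 and -0.15, with 0.00 and 0.16 from a dimmer probe. That last enzyme, Dld, is outside the set, was measured too, and had -0.07 and 0.31, of opposite sign.

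Seen by isoform, the 6 measured genes known as the forms of mature muscle (Pfkm, Aldoa, Pgam2, Fbp2, Ldha and Slc16a3) had a median of 0.01, and 5 of them changed sign between arrays. The 6 measured other forms (Pfkl, Pfkp, Pgam1, Eno1, Ldhb and Slc16a1) had a median of 0.17, with 3 above 0 on both arrays, 1 below and 2 of opposite sign. With limma's ratios the medians were 0.07 and 0.12, which lie closer together. Eno3 is a form of mature muscle too but was not measured, and Pkm2, at 0.24 and 0.43, is in neither list. Both lists are short and the difference between them was not tested.

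Further genes of the same pathways, from lists written with earlier results known, included called genes. Of 11 other genes of lactate and pyruvate handling, 7 were measured, and 3 were called higher and none lower. Across all tested genes 1.58% were called higher and 1.74% lower, and counts from lists chosen with results known are a description only. Pdk4, the Pdk kinase known for its rise in fasting muscle, had signals of 23834 in WT and 35432 in *Gde5* skKO on array 1, and of 17214 and 30511 on array 2. Its ratios were 0.57 and 0.83, with p-values of 0.00661 and 0.000147. Bsg, basigin, the partner that MCT1 and MCT4 need at the membrane, had 0.44 and 0.42, with p-values of 0.0335 and 0.0429. Ldhd, the mitochondrial dehydrogenase of D-lactate, had 0.53 and 0.46, with p-values of 0.0118 and 0.0277. The pyruvate carriers Mpc1 and Mpc2 had means of -0.08 and -0.01. Of 14 other genes of glycolysis and gluconeogenesis, 8 were measured and only Fbp1 was called, lower at -1.54 and -0.89 from dim signals of 29.9 to 87.2, with a limma mean of -0.33.

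Among markers of slow fibres and of fat some passed the test, beside the 1.58% and 1.74% of all tested genes called higher and lower. Of 10 measured markers of slow fibres, 9 lay above 0 on both arrays and 3 were called higher, Myl2 at 0.80 and 0.87, Tnni1 at 0.64 and 0.70, and Casq2 at 0.58 and 0.76, with a median of 0.38 for the list. Their summed signal was 188089 in WT and 255241 in *Gde5* skKO on array 1, and 195549 and 258449 on array 2. Of 12 markers of fast fibres none was called, 6 lay below 0 on both arrays and 3 above, and the median was -0.05. Of 8 measured markers of fat, 5 were called lower, among them Adipoq at -0.97 and -1.03, while Fabp4, Lpl and Pparg had means of 0.05, 0.15 and -0.01, Lep and Adig were not above background, and the summed signal was 62091 in WT and 64575 in *Gde5* skKO on array 1 and 64011 and 61134 on array 2. The median of the fat list was -0.70, and -0.33 with limma's ratios. The part of these markers in the ratios of Slc16a1, Ldhb or any other pathway gene was not tested.

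**Figure D5:**
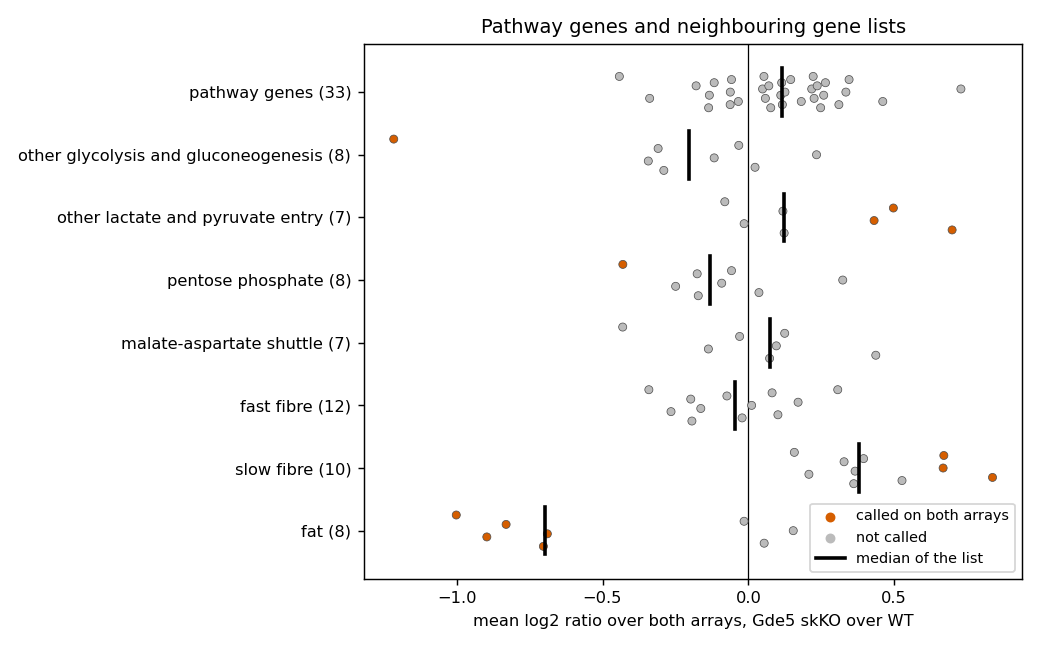
Mean log2 ratio over both arrays of *Gde5* skKO over WT (x axis) of each measured gene of the pathway and of 7 further lists (rows, with the number of measured genes), orange where the gene was called on both arrays, with the median of each list as a black bar. The pathway genes centre on 0.11 with no called gene, slow fibre markers on 0.38, and fat markers on -0.70 (-0.33 with limma's ratios, which are not drawn).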

How the data were processed

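The authors made labelled cRNA from total RNA, hybridized it to 2 whole mouse genome arrays on 1 slide, and extracted 1 scan with Agilent Feature Extraction (9.5 per the labels, 9.5.3.1 per the file headers). The deposited scanner files hold, for every spot, the log10 ratio (red over green, background-subtracted and dye-normalized) with its error and p-value, and the intensity of spot and background. A further deposited table of log10 ratios, with the swapped array not turned, served as an alternative.

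Ratios were expressed as log2 of *Gde5* skKO over WT, and replicate spots of a probe were averaged. Controls, spots carrying an outlier mark (164 and 200) and 11 spots beside debris were left out. RefSeq gave names to 24496 probes by accession, 6236 by symbol and 2378 by synonym, and 8064 kept the array's name. Probe coordinates follow the array annotation (mm8) and can span an intron. The text names every pathway gene, further probes where these differ in call or direction, and the called genes of other pathway lists. Genes and lists were chosen with earlier results of these data known. Alternatives used limma 3.58.1 in R 4.3.3 (normexp with an offset of 50, loess, eBayes over measured probes), and other steps Python 3.11.15. The steps were tested on simulated data.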

Additional observations from a re-analysis of the deposited data

How the results depend on the processing

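No pathway gene was called under 12 of the 18 alternatives. Among the 12, a stricter p and a fold threshold only narrow a main rule that had called none, so they could not call any. Limma's ratios, loess alone and the deposited ratio table kept the deposited p, which no pathway gene's brightest probe passed on both arrays. These could not call any either, and asking for signal in both channels only left genes out. The adjusted t-test called no gene of the whole series. Of the 18, 3 were chosen after seeing the data: the probe brightest in WT, outlier spots kept, and the combined error. With limma at an unadjusted p, 3 pathway genes were higher and 2 lower, among 604 and 609 of all genes, and with adjustment 43 and 73 of all genes were called. The median of the pathway genes was then 0.092, as with limma's ratios and the deposited p, and 0.093 with loess alone. The methods' t-test called 4 higher and 0 lower, among 617 and 572 genes, and after adjustment 0 and 0, with a median of 0.111. Counting any called probe gave 1 higher and 1 lower. The combined error gave 4 and 2, among 1078 and 860 genes. A deposited p under 0.01 left 108 and 127 genes, and a fold of at least 1.5 left 143 higher. With 1 array alone, and so each array left out in turn, 1 to 3 pathway genes were higher and 1 to 2 lower, among 930 to 971 and 723 to 916 genes, with medians from 0.121 to 0.124. Up to 7 pathway genes changed sign on 1 array alone and 2 with limma's ratios. Every ratio is taken within an array that holds both genotypes and so is already paired, and no further replicate block could be fitted. The methods' t-test instead compared the channel signals of the genotypes, unpaired, with channels as replicates, so its counts leave out this pairing. The block for the slide was not run, since there is 1 slide. Dim spots, as of Eno1 and Pdk3, limit the sizes of their ratios, and the number of mice behind each channel is not settled by the labels.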

Other observations

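Of 8 measured genes of the pentose phosphate pathway, 1 was called lower and none higher, beside 1.74% and 1.58% of all tested genes. The pathway draws on glucose 6-phosphate to make NADPH and ribose, and the median log2 ratio of its measured genes was -0.13. The called gene was Tkt, transketolase, at -0.41 and -0.45 with signals of 937 in WT and 703 in *Gde5* skKO on array 1 and of 1012 and 743 on array 2. Of 7 genes of the malate-aspartate shuttle, which carries reducing equivalents of glycolysis into mitochondria, none was called and the median was 0.07. Got2, its mitochondrial aminotransferase, had 0.17 and 0.70.

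None of the measured markers of blood, endothelial cells, fibroblasts and tendon, leukocytes and nerve was called, and the medians of these lists lay from -0.25 for blood to 0.03 for endothelial cells. Of 4 measured liver markers Ahsg was called lower, at -0.95 and -1.23, beside 1.74% of all tested genes.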
